A study of Mus musculus with 14 samples.

Results

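The genes of the cytosolic ribosomal proteins were followed across sorted mouse blood stem and progenitor cells with and without Dnmt1, which keeps DNA methylation up after each round of replication. Genes were taken by name: a probe set counted where the platform annotation gave it a single symbol that begins with Rpl or Rps and a digit, or reads Rpsa, Rplp0, Rplp1 or Rplp2. Symbols of the Rps6k kinases, pseudogenes ending in -ps and Rpl39l were left out, and each gene was represented by its probe set with the highest mean over the 14 arrays. This gave 47 genes of 12393 with a single-symbol probe set, and no measured difference was used to choose them. Of these, 45 passed the filter on dim probe sets and were among the 8608 genes tested: 19 proteins of the small subunit, 21 of the large subunit, and 5 paralogs or copies (Rpl22l1, Rpl3l, Rpl7l1, Rps27l and Rps4l). Rpl37 and Rps27 failed the filter, with median intensities of 4.2 and 7.5.

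The cytosolic ribosome translates nuclear-encoded messages. Its small subunit reads the message and its large subunit joins the amino acids, and each is built in the nucleolus from ribosomal RNA and a fixed set of proteins, most of which are needed in equal amounts. Most of these proteins are made from messages that begin with a run of pyrimidines (C and T in the DNA), called a 5' TOP motif, whose translation follows growth signals through mTOR and the binding protein Larp1. In people, loss of one copy of RPS19 or of several other ribosomal protein genes causes Diamond-Blackfan anemia, a failure of red cell production. Unassembled Rpl11 and Rpl5, bound to the 5S ribosomal RNA, block Mdm2 and so stabilise p53. In mice, blood stem cells are known to make protein more slowly than the progenitors below them.

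The 14 arrays measured 3 populations from lineage-depleted marrow: long-term hematopoietic stem cells (LT-HSCs, sorted as c-Kit+ Sca-1+ CD34-), multipotent progenitors (MPPs, c-Kit+ Sca-1+ CD34+) and myeloid progenitors (c-Kit+ Sca-1-). Knockout mice were Dnmt1 fl/fl with the Mx-Cre transgene, and control mice were Dnmt1 fl/fl littermates without it; both were on a C57BL/6 background and 8 to 12 weeks old. Mice of either genotype were injected 7 times, on alternate days, with poly(I)-poly(C) (25 ug/kg), and their marrow was collected 4 days later. The Mx promoter that drives Cre answers to interferon, is not restricted to blood cells, and poly(I)-poly(C) itself induces an interferon response, which the controls therefore share. Each sample was a pool of 4 to 6 mice of 1 genotype. There were 2 knockout and 2 control arrays of LT-HSCs, 2 and 2 of MPPs, and 3 and 3 of myeloid progenitors, and same-numbered arrays came from littermates, which makes 7 pairs.

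Values were deposited as linear intensities, with array medians of 41.1 to 49.1. Within a group, correlations between arrays lay between 0.900 and 0.980. Dnmt1 had intensities of 745 to 1305 on knockout arrays, against 1328 to 2219 on control arrays. Its mean difference of -0.63 on the log2 scale did not pass (limma, adjusted p = 0.193). The probe set may lie outside the deleted part, so it checks the labels only in part. The difference of Cd34 between LT-HSCs and MPPs was -3.62 (limma, adjusted p = 0.000317). The stem cell markers Procr and Hlf were higher in LT-HSCs than in myeloid progenitors, by 1.88 and 1.41 (adjusted p = 0.0112 and 0.0230), but their means in LT-HSCs, 7.66 and 8.04, were not above those in MPPs, 8.28 and 9.21. Of 17 B cell markers tested, 12 passed as higher in LT-HSCs than in MPPs (limma, adjusted p below 0.05), where 186 of 8608 tested genes did. Both arrays of LT-HSC pair 1 stand apart from the other arrays, as described below.

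The ribosomal protein genes were bright and, after normalization, even from array to array. Of the 45, 36 had a median intensity over 1000, between 2038 for Rps27l and 7530 for Rpsa, the small subunit protein also known as a laminin receptor. The other 9 were the large subunit proteins Rpl12, Rpl14 and Rpl39, the small subunit proteins Rps6 and Rps25, and the paralogs or copies Rpl22l1, Rpl3l, Rpl7l1 and Rps4l. A probe set's intensity depends on its own sequence, so these figures do not rank the genes by abundance. The standard deviation of a member over the 14 arrays had a median of 0.164 on the normalized log2(intensity + 16) scale, against 0.388 over all genes tested. Quantile normalization gives each rank the same value on every array, so it can narrow the spread of the brightest probe sets. Rps28 ran from 3907 to 5102 in deposited intensity and from 12.14 to 12.32 after normalization. The part of normalization in the evenness of the members was not tested. It was under 0.2 for 26 of 45 members (57.8%) and for 7.16% of all genes tested. The most even were Rps28 at 0.053, Rpl38, known in mouse embryos for the translation of Hox messages, at 0.058, and Rps2 at 0.059. The most variable were Rps4l at 0.568, Rpl39, which lines the exit tunnel, at 0.562, and Rps25 at 0.531, and these 3 were also dim.

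**Figure D1:**
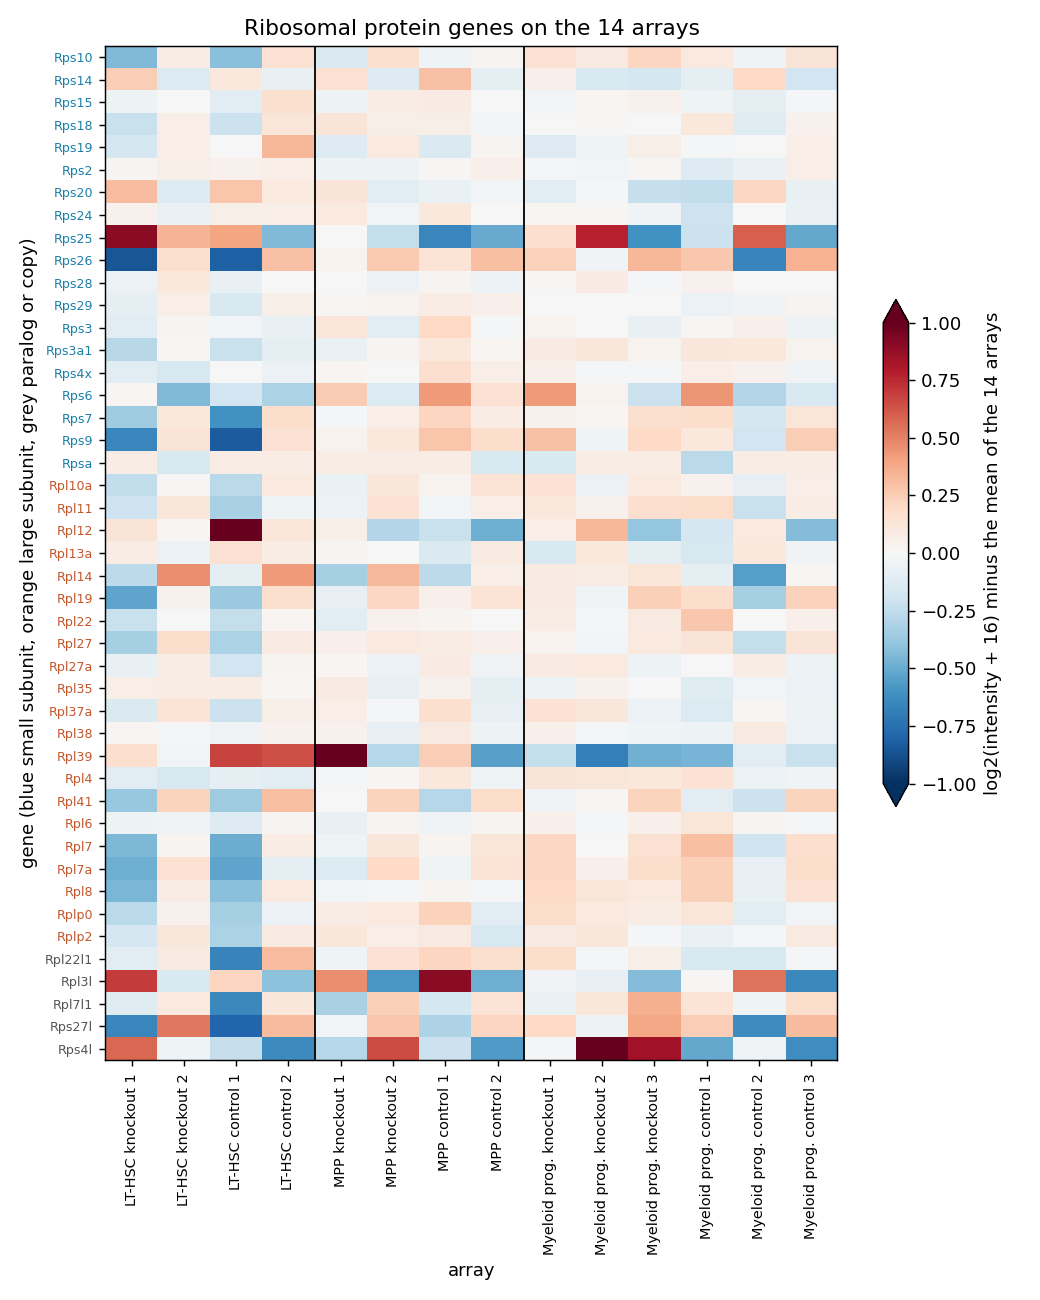
Each row is a ribosomal protein gene and each column an array; colour is the normalized log2(intensity + 16) minus the gene's mean over the 14 arrays, and vertical lines part the 3 populations. Most rows stay pale, with a median standard deviation of 0.164, and the columns of LT-HSC pair 1 hold the 2 lowest values for 21 of the 45 genes.

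The promoters of these genes are shown because Dnmt1 acts on CG dinucleotides. RefSeq (GRCm38.p6) gave a promoter, from 250 bases before to 50 bases after the start, for 41 of the 47 genes; Rpl7, Rpl8, Rps14, Rps20, Rps29 and Rps4l had none here. The number of CG dinucleotides in these 300 bases had a median of 22 over the members, 21 over 7034 tested genes and 7 over 27025 genes of the table. It ran from 2 in Rpl3l, a paralog of Rpl3 made in muscle, to 34 in Rplp2, a protein of the ribosomal stalk, and in Rps2. The 3 promoters below span that range, and in each the CG dinucleotides are in capitals. Rplp2 lies at chr7:141447401-141447700 on the plus strand with 34 of them. Rps26, a protein near the exit of the messenger RNA channel, lies at chr10:128626457-128626756 on the minus strand with 16. Rpl3l lies at chr17:24727576-24727875 on the plus strand with 2.
Rplp2: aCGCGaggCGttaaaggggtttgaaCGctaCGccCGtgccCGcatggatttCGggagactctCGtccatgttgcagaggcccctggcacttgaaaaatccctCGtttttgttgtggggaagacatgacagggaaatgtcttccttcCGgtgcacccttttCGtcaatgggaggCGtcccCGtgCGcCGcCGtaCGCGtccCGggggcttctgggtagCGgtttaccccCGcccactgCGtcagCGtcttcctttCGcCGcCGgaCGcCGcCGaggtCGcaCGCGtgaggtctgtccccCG
Rps26: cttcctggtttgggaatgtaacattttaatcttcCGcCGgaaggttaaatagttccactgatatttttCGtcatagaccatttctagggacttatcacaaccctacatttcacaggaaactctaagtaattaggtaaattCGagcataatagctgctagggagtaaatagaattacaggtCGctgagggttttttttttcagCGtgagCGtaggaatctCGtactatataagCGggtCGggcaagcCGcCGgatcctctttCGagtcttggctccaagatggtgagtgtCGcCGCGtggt
Rpl3l: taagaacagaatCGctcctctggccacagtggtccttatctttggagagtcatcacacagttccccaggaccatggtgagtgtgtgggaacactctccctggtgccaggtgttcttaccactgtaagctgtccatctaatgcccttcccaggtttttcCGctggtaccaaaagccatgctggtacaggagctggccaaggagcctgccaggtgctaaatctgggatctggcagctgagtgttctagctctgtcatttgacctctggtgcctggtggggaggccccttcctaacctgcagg

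Short motifs were counted in the same windows as a description. CCGGAAG, the core bound by ETS family factors, was read on both strands and stood in 48.8% of the member promoters, 19.4% of those of tested genes and 9.12% of all promoters. GGGCGG, the core of the Sp1 site, read on both strands, stood in 56.1%, 64.9% and 35.9%. AAGATGG, the core of the YY1 site, read on both strands, stood in 14.6%, 7.85% and 6.48%. TATAAA in the 50 bases before the start, on the coding strand, was found in 1 member, Rpl22l1 (2.44%), in 1.61% of the tested genes and in 2.88% of all promoters. A run of at least 7 pyrimidines on the coding strand between 20 bases before and 30 after the start, as in a TOP motif, stood in 65.9% of the members, 26.2% of the tested genes and 28.5% of all promoters. The motifs were counted separately, so that a base may belong to more than 1 of them. No methylation was measured at these windows.

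No ribosomal protein gene passed the test between Dnmt1 knockout and control cells in any population. In LT-HSCs 0 of 45 members passed an adjusted p of 0.05 (limma with Benjamini-Hochberg adjustment over all 8608 genes), where 0.0697% of all tested genes passed, and 0 had an unadjusted p below 0.05, where 3.47% of all genes did upward and 3.15% downward. In MPPs 0 passed, against 0.0697% of all genes, and 0 had an unadjusted p below 0.05, against 1.42% upward and 1.24% downward. In myeloid progenitors 0 passed, against 0.0929%, and 1 had an unadjusted p below 0.05, against 0.836% upward and 0.186% downward. For the mean of the 3 populations 0 passed, against 0.232%, and 1 had an unadjusted p below 0.05, against 3.19% upward and 2.86% downward. That 1 gene was Rps4l both times. Precision is limited by having 2 or 3 pools per group.

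The median difference of the members lay close to 0 in each comparison. It was 0.005 in LT-HSCs, where 24 of 45 differences were above 0, beside -0.004 and 49.7% over all genes tested. In MPPs it was -0.022, with 18 of 45 above 0, beside -0.002 and 49.7%. In myeloid progenitors it was 0.041, with 33 of 45 above 0, beside -0.017 and 45.8%. For the mean of the 3 populations it was 0.004, with 25 of 45 above 0, beside -0.008 and 48.4%. The medians of the single littermate pairs ran from -0.067 in MPP pair 1 to 0.131 in myeloid pair 2, with a standard deviation of 0.0629 over the 7 pairs. Without myeloid control array 2, which is in that last pair, the myeloid median was 0.010, with 27 of 45 above 0. The value in LT-HSCs turned to -0.081 without normalization and to -0.069 with median centring, and leaving out 1 array moved it between -0.076 and 0.146.

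The 95% confidence intervals bound what could have been missed for single genes on the normalized scale. Normalization can reduce a change shared by these bright genes before the fit, and the intervals do not bound such a change. The interval lay wholly within 0.5 of 0, a change of less than 1.5-fold, for 28 of 45 members in LT-HSCs, against 2.66% of all genes tested. The counts were 30 for MPPs against 3.31%, 32 for myeloid cells against 9.28%, and 40 for the mean of the 3 populations against 36.7%. An interval reached, at the median over the members, to either side by 0.345, 0.345, 0.281 and 0.188 in the 4 comparisons, beside 0.759, 0.759, 0.619 and 0.413 over all genes. The fit lets the spread depend on the mean level and most members were bright; the part of brightness in these widths was not tested. For the mean of the 3 populations the intervals of Rps4l, Rps25, Rps27l, Rpl3l and Rpl39 reached beyond 0.5.

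**Figure D2:**
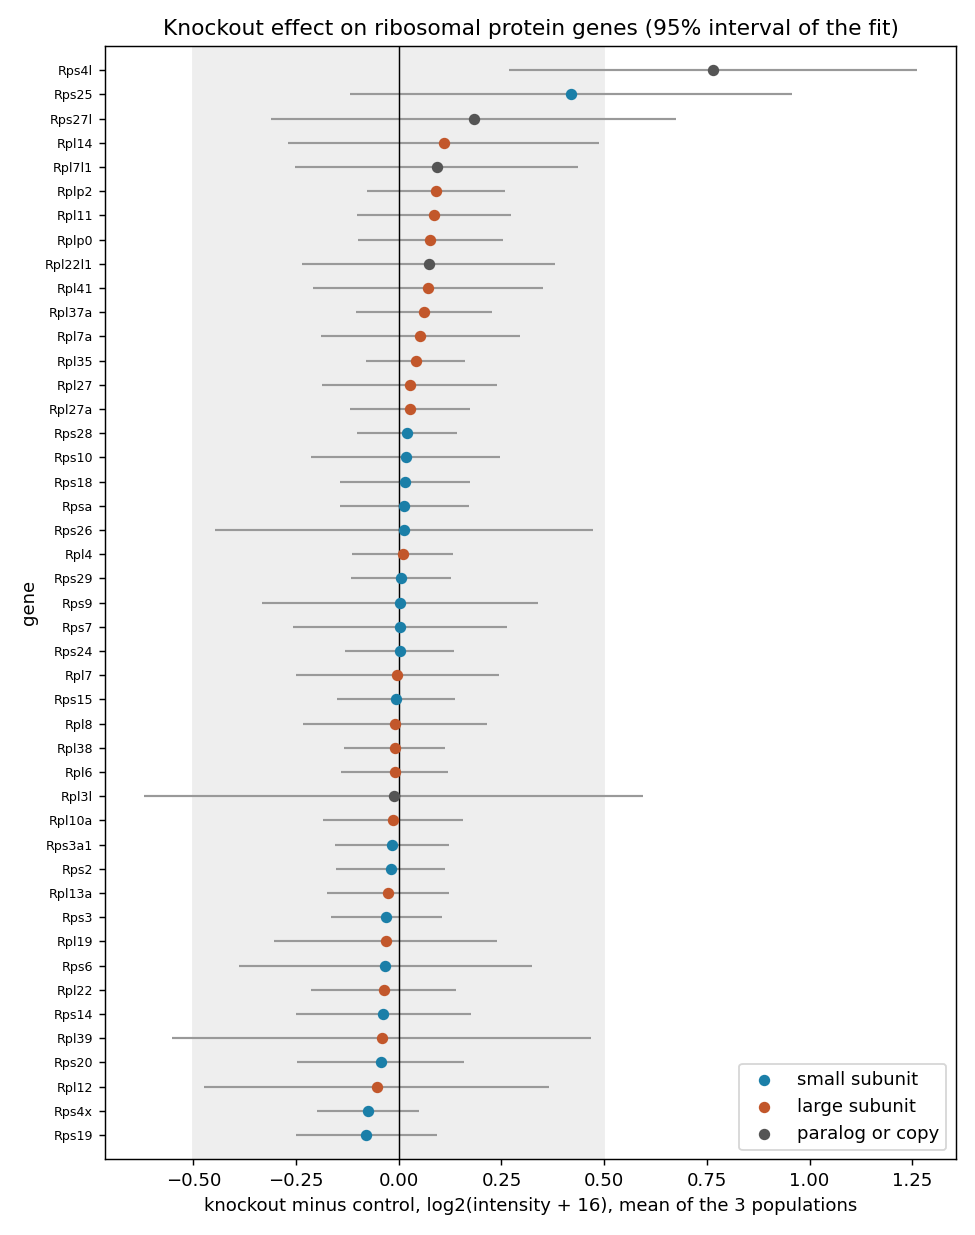
Points are the knockout minus control difference of each of the 45 genes as the mean of the 3 populations, on the log2(intensity + 16) scale, with 95% intervals of the fit; the grey band marks differences within 0.5 of 0. For 40 of 45 genes the interval stays inside the band, and the point of Rps4l lies farthest from 0, at 0.76.

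Rps4l had the largest difference of the members for the mean of the 3 populations, while in MPPs alone Rpl39 had a larger one. It resembles Rps4x and is listed by RefSeq as a transcribed pseudogene on chromosome 6, so its signal may not stand for a ribosomal protein. Its intensities in LT-HSCs were 87.2 and 59.95 on knockout arrays, against 45.1 and 34.2 on control arrays, which do not overlap. In MPPs they were 46.75 and 102 on knockout arrays, against 51.1 and 36.2 on control arrays. In myeloid progenitors they were 53.4, 145 and 121 on knockout arrays, against 34.0, 57.5 and 33.45 on control arrays. Both of the last 2 populations overlap in 1 array, and the knockout array was the higher in 6 of 7 pairs, the exception being MPP pair 1. The LT-HSC difference was 0.69 ± 0.42, the MPP difference 0.57 ± 0.42 and the myeloid difference 1.03 ± 0.35 (standard error of the fit; n = 2, 2 and 3 per genotype). The mean of the 3 was 0.76 ± 0.23, with an unadjusted p of 0.00541 and an adjusted p of 0.431 by limma. This is a fold of 1.70 in normalized intensity plus the pseudocount, not in the intensity itself. The pseudocount shrinks the fold of a gene as dim as Rps4l. Over the alternative settings the difference lay between 0.48 and 0.95 and the adjusted p between 0.107, with the littermate pairs as blocks, and 0.800.

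Rps4x, the X-linked protein of the small subunit that Rps4l resembles, had no such difference. Its intensities were 3155 and 3633 in knockout LT-HSCs, against 3529 and 4114 in control LT-HSCs. They were 4152 and 4159 in knockout MPPs, against 4691 and 4249.8 in control MPPs, and these groups do not overlap. In myeloid progenitors they were 4095, 4041 and 4114 on knockout arrays, against 4050, 3924 and 4073 on control arrays. On the normalized scale the knockout array was the lower in 6 of 7 pairs, by at most 0.147, but by the deposited intensities it was the lower in only 4 of 7. The mean difference was -0.075 ± 0.058 (limma, adjusted p = 0.989).

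Among the proteins first tied to marrow failure, Rps19, the gene most often altered in Diamond-Blackfan anemia, had intensities of 2808 and 3980 in knockout LT-HSCs, against 3350 and 5098 in control LT-HSCs. After normalization it was lower on the knockout array of both LT-HSC pairs and higher on that of both MPP pairs. The LT-HSC difference was -0.22 ± 0.15, the MPP difference 0.044 ± 0.146 and the myeloid difference -0.059 ± 0.119, none of which passed (limma, adjusted p = 0.875, 1 and 1). After normalization Rps26 was lower on the knockout array of 6 of 7 pairs by at most 0.129 (of 4 by the deposited intensities), while in myeloid pair 2 it was higher by 0.624. Its mean difference was 0.012 ± 0.213. Rpl11, the partner of Rpl5 in the Mdm2-binding particle, had 2843 and 4291 in knockout LT-HSCs, against 2772 and 4092 in control LT-HSCs, and a mean difference of 0.085 ± 0.087. Of 18 genes listed for this anemia, 11 were members and 10 were tested (Rps7, Rps10, Rps19, Rps24, Rps26, Rps28, Rps29, Rpl11, Rpl27 and Rpl35). Their mean differences ran from -0.079 to 0.085 with a median of 0.014, and 9 of 10 were above 0, where 48.4% of all genes were. By population 6 of 10 were above 0 in LT-HSCs, 5 in MPPs and 9 among the myeloid samples. The littermate pairs did not agree in direction. The median over these 10 genes was -0.009 and -0.028 in the LT-HSC pairs and -0.024 and 0.011 in the MPP pairs. In the myeloid pairs it was -0.035, 0.105 and 0.010, the largest being that of pair 2. Rps14, the small subunit protein lost in the human 5q- syndrome, was at -0.038 ± 0.099.

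**Figure D3:**
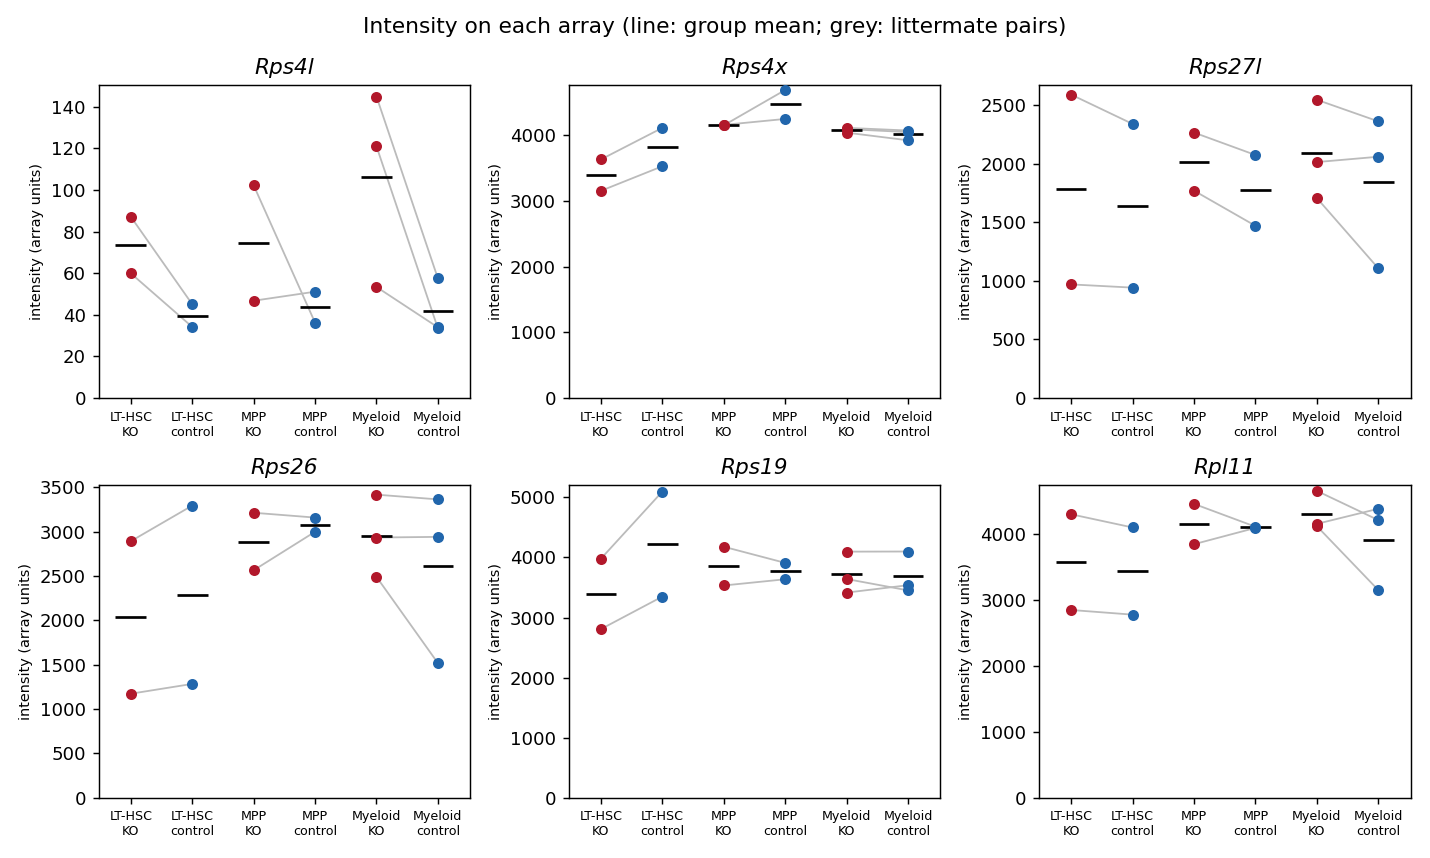
Deposited intensity (vertical axis, array units) of 6 genes on each array, by population and genotype (red knockout, blue control), with group means as black bars and littermate pairs joined in grey. In Rps4l the knockout array is the higher in 6 of 7 pairs, and in Rps4x the knockout array is the lower in the LT-HSC and MPP pairs. In Rps26 and Rps27l the arrays of LT-HSC pair 1 lie far below those of pair 2 in both genotypes.

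Other proteins of the small subunit gave small differences. Their median for the mean of the 3 populations was 0.002 over 19 genes, from -0.079 (Rps19) to 0.42 (Rps25). Rps25, known for its part in initiation at internal sites of a message, had intensities of 383 and 290 in knockout LT-HSCs, against 279 and 167 in control LT-HSCs. In MPPs it had 212 and 178 on knockout arrays, against 133 and 152 on control arrays, and in myeloid progenitors 225, 370.5 and 139.5 against 184, 337 and 157. The genotypes did not overlap in LT-HSCs or MPPs and overlapped in myeloid progenitors. The knockout array was the higher in 6 of 7 pairs, and the mean difference was 0.42 ± 0.25 (limma, adjusted p = 0.914). Rps6, the target of the S6 kinases below mTOR, was at -0.033 ± 0.166 and lower on the knockout array of 5 of 7 pairs. Rpsa was at 0.014 ± 0.073, but its normalized value was tied at 13.07 on most arrays, which limits what its difference can show. Rps3, at the entry of the messenger RNA channel, was at -0.031 ± 0.063, and Rps2 at -0.020 ± 0.061.

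The large subunit gave a median of 0.010 over 21 genes, from -0.053 (Rpl12) to 0.11 (Rpl14). The stalk proteins Rplp0 and Rplp2, which recruit elongation factors, were each higher on the knockout array of 6 of 7 pairs after normalization, but by the deposited intensities Rplp0 was so in 3 and Rplp2 in 4. The mean differences were 0.077 ± 0.082 and 0.091 ± 0.078 (limma, adjusted p = 1.00 and 1.00). Rplp2 had 4486 and 5829 in knockout LT-HSCs, against 4207 and 6906 in control LT-HSCs. Its intensities were 6053 and 6567 in knockout MPPs, against 6095 and 5483 in control MPPs. In myeloid progenitors they were 6169, 6182 and 6376 on knockout arrays, against 5948, 5435 and 6723 on control arrays, so that the genotypes overlapped in all 3 populations. Rpl12, which sits at the base of the stalk, differed by -0.57 ± 0.36 in LT-HSCs, where control array 1 had an intensity of 496 and the other arrays of LT-HSCs between 221 and 256. Without LT-HSC control array 1 the difference was -0.045. Rpl39 had 30.6 and 28.3 in knockout LT-HSCs, against 50.3 and 55.2 in control LT-HSCs, and 88.2 and 19.3 in knockout MPPs, against 38.0 and 12.5 in control MPPs. Its LT-HSC difference was -0.59 ± 0.43, its MPP difference 0.67 ± 0.43 and its myeloid difference -0.20 ± 0.36. Rpl22, needed for T cell development in mice, was at -0.037 ± 0.082, and Rpl13a, which leaves the ribosome to silence messages after interferon gamma in human monocytic cells, at -0.026 ± 0.069. Another probe set of Rpl22, with a median intensity of 326, was at -0.37, and that of Rpl13a with the lowest median, 1025, was at 0.224.

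The other paralogs gave differences within their errors. Rps27l, a p53-induced relative of Rps27, had 971 and 2592 in knockout LT-HSCs, against 943 and 2341 in control LT-HSCs, and 1771 and 2268 in knockout MPPs, against 1471 and 2076 in control MPPs. In myeloid progenitors it had 2015, 1708 and 2548 on knockout arrays, against 2061, 1108 and 2363 on control arrays. The genotypes overlapped in every population, the knockout array was the higher in 6 of 7 pairs, and the mean difference was 0.18 ± 0.23 (limma, adjusted p = 1.00). Rpl22l1, which Rpl22 keeps low in mice, was at 0.072 ± 0.143. Rpl7l1 was at 0.092 ± 0.160 and Rpl3l, with intensities of 1.66 to 38.7, at -0.013 ± 0.282. All 5 paralogs or copies had differences above 0 in LT-HSCs, from 0.17 to 0.69, where 49.7% of all genes did. In MPPs 2 of 5 did, against 49.7%, and in myeloid progenitors 4 of 5, against 45.8%. In LT-HSCs Rpl22l1 and Rpl7l1 were above 0 only in pair 1, at 0.562 and 0.523, against -0.219 and -0.017 in pair 2. Rpl3l, Rps27l and Rps4l were above 0 in both pairs.

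Counted over littermate pairs, 0 members moved the same way in all 7, where 2.13% of all tested genes were higher and 2.29% lower in all 7. In 6 of 7 pairs the knockout array had the higher value for Rpl35, Rplp0, Rplp2, Rps25, Rps27l and Rps4l, which is 6 of 45 members against 9.82% of all genes. Rpl8, Rps26 and Rps4x were lower in 6 of 7, which is 3 of 45 against 11.4%. These counts use the normalized values, and a tied pair counts as neither. By the deposited intensities Rps25, Rps27l and Rps4l were again higher in 6 of 7, but Rpl35 in 4, and Rpl8 was lower in 4. That is no more than over all genes for the lower ones, and close to the share of all genes for the higher ones.

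No member passed the interaction terms of the limma fit, which test whether the knockout effect differs between populations. With an adjusted p below 0.05 there were 0 of 45 members in each of the 3 interactions, where 0% of all tested genes passed. With an unadjusted p below 0.05 there were again 0 members in each. Over all genes that share was 1.43% upward and 1.59% downward for LT-HSCs minus MPPs, 1.43% and 1.23% for LT-HSCs minus myeloid progenitors, and 0.163% and 0.325% for myeloid progenitors minus MPPs. The smallest p among the members was that of Rpl39, whose knockout effect in LT-HSCs minus that in MPPs was -1.26 ± 0.61 (unadjusted p = 0.0611, adjusted p = 0.999). The median over the members was 0.032 for LT-HSCs minus MPPs, -0.028 for LT-HSCs minus myeloid progenitors and 0.067 for myeloid progenitors minus MPPs.

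Between populations, averaged over both genotypes, the ribosomal protein genes also stayed close together. Comparing LT-HSCs with MPPs, 0 of 45 members passed (limma, adjusted over all genes), where 4.97% of all genes passed; without LT-HSC control array 2 there were 2 (Rpl12 and Rps9). With an unadjusted p below 0.05 there were 1 higher in LT-HSCs (Rpl12) and 1 lower (Rps9), against 10.3% and 11% of all genes. The median difference was -0.096, with 13 of 45 above 0, against 48.7% of all genes. Comparing LT-HSCs with myeloid progenitors, 0 passed, against 14.1%. Here 1 was higher (Rpl39) and 7 were lower at an unadjusted p below 0.05 (Rps3a1, Rpl7a, Rpl4, Rpl8, Rpl7, Rps9 and Rplp0), against 13.6% and 16.2%, and the median was -0.078 with 15 of 45 above 0, against 51%. The count of 0 depends on the arrays and scaling: 7 members passed without LT-HSC control array 2, 6 without LT-HSC knockout array 2, 1 (Rpl39) without either MPP knockout array, and 2 with median centring. Comparing myeloid progenitors with MPPs, 0 passed, against 1.95%, and 0 had an unadjusted p below 0.05, against 7.34% upward and 7.19% downward. The median was -0.016 with 18 of 45 above 0, against 52.5%. In sorted bulk samples, fewer cells of a type and less RNA per cell cannot be told apart.

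The medians below 0 in LT-HSCs, and the lower values of many but not all members, rested on 1 littermate pair. Rps9 had 1878 and 3858 in knockout LT-HSCs and 1789 and 4129 in control LT-HSCs, where the first value of each genotype is pair 1. In MPPs it had 3635 and 3963 on knockout arrays, against 4493 and 3976 on control arrays. Its difference between LT-HSCs and MPPs was -0.45 ± 0.20 (limma, adjusted p = 0.220), and -0.012 without pair 1. The direction depends on the probe set. Another bright probe set of Rps9, with a median intensity of 3352, was at 0.226 with all arrays. A dim one, with a median of 111.4, was at -0.247. For Rps26 the difference was -0.49 with all arrays and 0.044 without pair 1. For Rps3a1, which had the smallest adjusted p of any member between populations, the difference between LT-HSCs and myeloid progenitors was -0.22 ± 0.076 (adjusted p = 0.0671), and -0.12 without pair 1. Without pair 1 the median over the members was 0.022 against MPPs and 0.032 against myeloid progenitors, with 30 and 27 of 45 above 0, and 20 and 16 members that were below 0 with all arrays were then above it. Without pair 1 only 1 knockout and 1 control array of LT-HSCs remain, so these values rest on the other pair alone. The choice to leave out pair 1 was made after seeing the data.

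**Figure D4:**
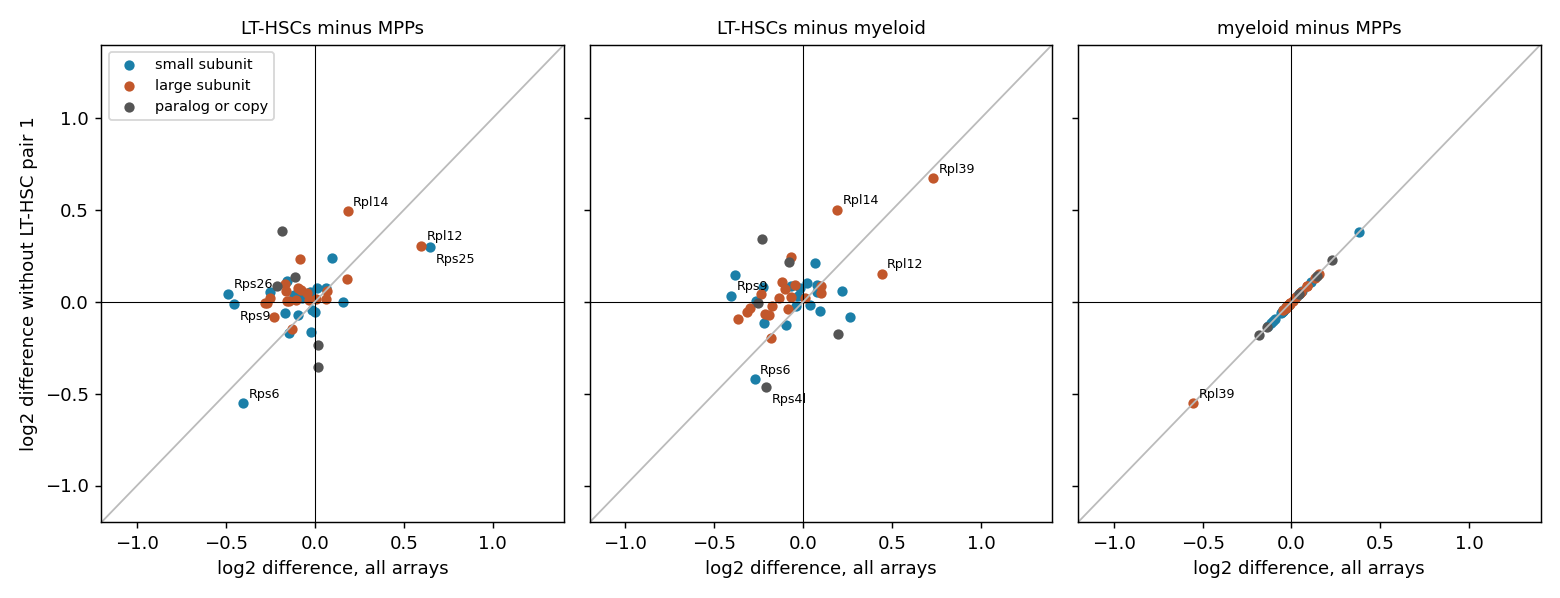
Each point is a ribosomal protein gene; the horizontal axis is its log2 difference between populations with all arrays and the vertical axis the same without both arrays of LT-HSC pair 1, with the diagonal in grey. In the panels that involve LT-HSCs, points such as Rps26 and Rps9 lie near 0 on the vertical axis when the pair is left out, and the third panel does not use LT-HSC arrays, so that its points stay on the diagonal.

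Some members kept their direction without pair 1, where LT-HSCs have only 1 array of each genotype left. For Rpl12 LT-HSCs exceeded MPPs by 0.60 ± 0.25 (limma, adjusted p = 0.195), and by 0.31 without the pair. Rpl39 had intensities of 28.3 to 55.2 in LT-HSCs and 10.2 to 23.6 in myeloid progenitors, and lay above the filter's percentile on 7 of 14 arrays. Its fitted difference between these populations was 0.73 ± 0.28 (adjusted p = 0.100) and 0.67 without the pair, but values this near the background do not give its size. For Rps25 LT-HSCs exceeded MPPs by 0.65 ± 0.32 (adjusted p = 0.271), and by 0.30 without the pair. For Rps6 the difference between LT-HSCs and MPPs was -0.40 ± 0.22 (adjusted p = 0.297), and -0.55 without the pair. For Rpl4 the difference between LT-HSCs and myeloid progenitors was -0.18 with all arrays and -0.20 without the pair, and for Rps4x that between LT-HSCs and MPPs was -0.14 and -0.17. None of these passed the test.

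Several measures moved with LT-HSC pair 1. Its knockout and control arrays were the 2 lowest of all 14 for 21 of 45 members, against 10.8% of all genes tested, and together with myeloid control array 2 they were the 3 lowest for 12 of 45, against 5.13%. The summed signal of the members was 2.44% of all signal on the knockout array and 2.40% on the control array of the pair, and 2.62% to 2.96% on the other 12 arrays. By group it was 2.62% ± 0.24 in knockout and 2.68% ± 0.40 in control LT-HSCs, 2.88% ± 0.11 and 2.88% ± 0.034 in MPPs, and 2.92% ± 0.039 and 2.75% ± 0.12 in myeloid progenitors (SD, n = 2, 2 and 3 per genotype). The ratio of Gapdh 3' to 5' signal was 5.15 and 5.44 in the pair and 2.46 and 3.07 on the other knockout and control array of LT-HSCs. It was also 4.35 and 4.30 in myeloid pair 2 and 5.27 on myeloid control array 1. The same ratio for Actb went the other way, being lowest of all 14 arrays in LT-HSC pair 1, at 0.754 and 0.808, against 0.833 to 1.18 elsewhere. The summed intensity of 17 B cell markers was 13230 and 19130 in the pair, 8567 and 10220 on the other knockout and control array of LT-HSCs, and 528 to 4791 elsewhere. The part of these 3' to 5' ratios and of B cell RNA in the members' values was not tested.

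**Figure D5:**
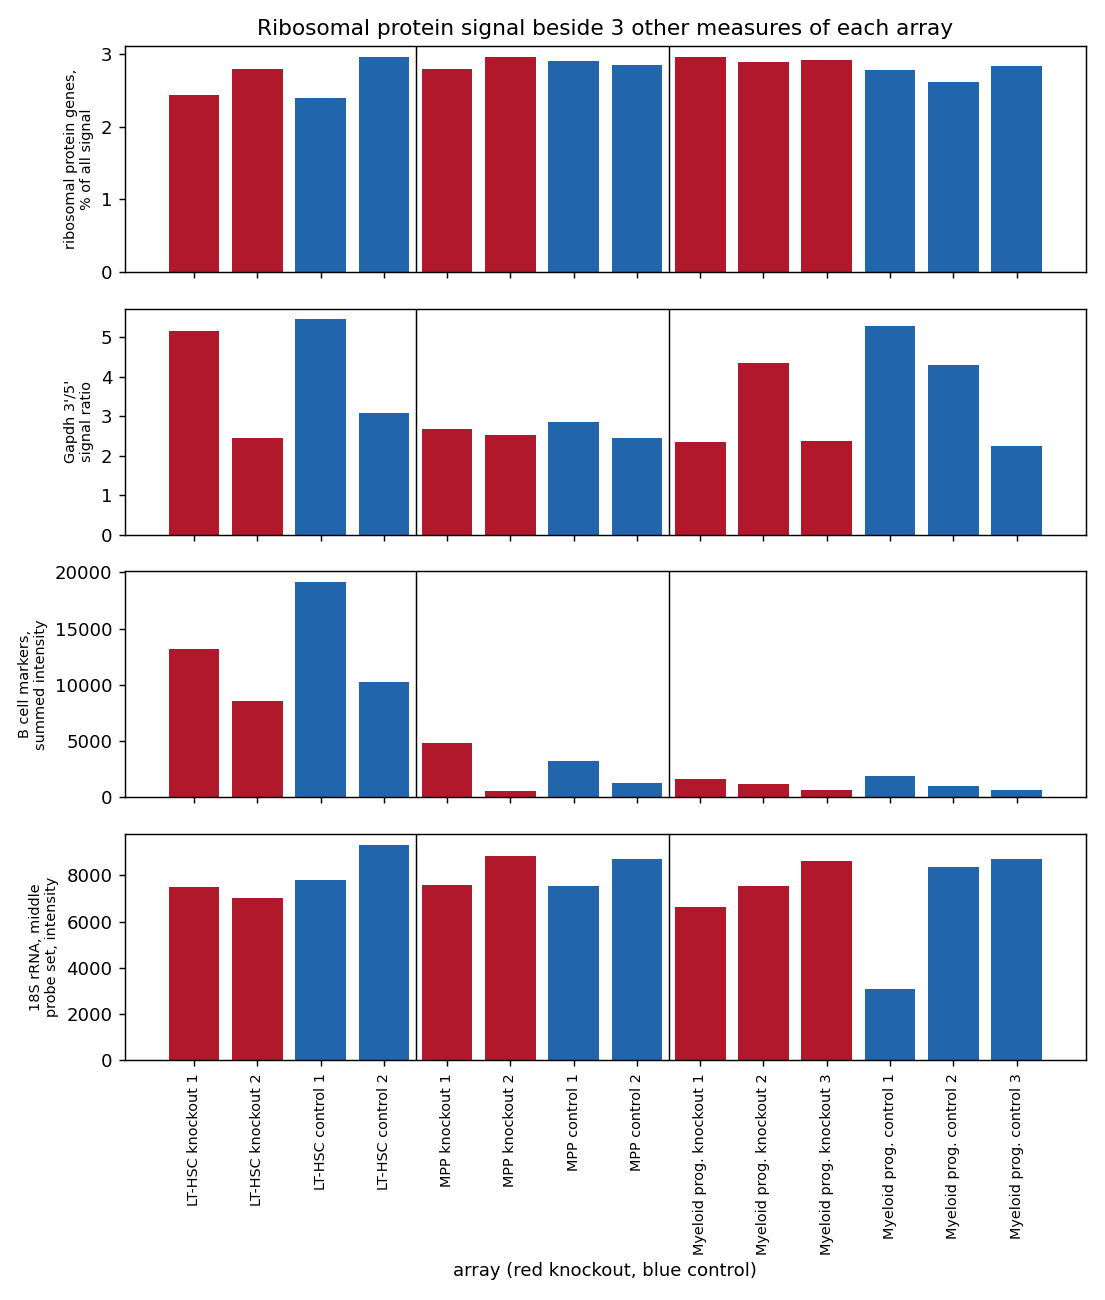
For each array, from top to bottom: the 45 ribosomal protein genes' share of all signal in percent, the Gapdh 3'/5' signal ratio, the summed intensity of 17 B cell markers and the intensity of an 18S ribosomal RNA control probe set (red knockout, blue control). The arrays of LT-HSC pair 1 have the lowest shares, 2.44% and 2.40%, and 18S RNA is low on myeloid control array 1, at 3086.

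The ribosomal RNA control probe sets did not follow the protein genes. On myeloid control array 1 the 3 probe sets of 18S ribosomal RNA read 856, 404 and 3086, while on the other 13 arrays they read 5366 to 8230, 3302 to 5121 and 6617 to 9320. The members' share of signal on that array was 2.78%, inside the range of the other arrays. Its Gapdh 3'/5' ratio was 5.27.

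The wider machinery of ribosome making was followed through gene lists. Of 62 genes for ribosome assembly, 0 passed in any knockout comparison (limma). Of them 49 had a mean difference above 0, where 48.4% of all genes did. Their median was 0.093, beside -0.008 over all genes, and Rrs1 at 0.35 ± 0.16 and Pwp2 at 0.32 ± 0.14 had the smallest p. The 13 genes of RNA polymerase I and its factors had a median of 0.108 with 0 called. The 20 other genes whose messages carry a TOP motif, such as the translation factor Pabpc1 at -0.10 ± 0.096 and Tpt1 at -0.095 ± 0.083, had a median of -0.039 with 6 above 0 and 0 called. The 74 mitochondrial ribosomal proteins had a median of 0.090 with 51 above 0 and 0 called, Mrps7 at 0.38 ± 0.14 having the smallest p. Of 10 genes of the p53 axis, which include the member Rps27l, 9 were above 0 with a median of 0.212 and 0 called; the p53 targets Phlda3 and Cdkn1a were at 0.62 ± 0.18 and 0.54 ± 0.17 (adjusted p = 0.390 and 0.467). The 12 growth regulators had 0 called, with Mxd4, an antagonist of Myc, at -0.59 ± 0.18 (adjusted p = 0.432). The 14 interferon-response genes had a median of -0.081, 5 above 0 and 0 called. Most markers of erythroid cells and of T and NK cells lay above 0 as well. Summed B cell markers were lower on the knockout array of both LT-HSC pairs, at 13230 against 19130 and 8567 against 10220. In MPPs and myeloid progenitors they went either way between pairs, as did summed mature granulocyte markers in all 3 populations. Over all genes, 3.19% were higher and 2.86% lower at an unadjusted p below 0.05 (limma) for the mean of the 3 populations. Of 13 erythroid markers 12 were above 0, with a median of 0.488 and 6 at an unadjusted p below 0.05. The summed intensity of these erythroid markers in MPPs was 5990 and 5693 on knockout arrays, against 4458 and 2847 on control arrays. Of 15 T and NK cell markers 13 were above 0, with a median of 0.349 and 4 at an unadjusted p below 0.05, and their summed intensity in LT-HSCs was 2337 and 4076 on knockout arrays, against 1815 and 2039 on control arrays. No erythroid or T and NK cell marker passed (limma, adjusted p). The part of all these cell types in the shifts of the lists above was not tested.

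Between populations some genes of these lists passed, mostly at or below the share of all genes. In LT-HSCs against myeloid progenitors, where 14.1% of all genes passed, so did 1 of 62 assembly genes (Nop58, of the methylation complex for ribosomal RNA, higher by 0.38 ± 0.12, adjusted p = 0.0438) and 1 of 13 polymerase I genes (Ubtf, higher by 0.55 ± 0.13, adjusted p = 0.0138). So did 3 of 74 mitochondrial ribosomal proteins (Mrpl45, Mrpl33 and Mrpl15, all lower) and 2 of 20 other TOP messages (Vim and Pabpc1, with differences of -0.58 ± 0.10 and -0.37 ± 0.11, adjusted p = 0.00189 and 0.0465). Of 10 p53-axis genes 5 were higher, among them Cdkn1a by 1.67 ± 0.21 (limma, adjusted p = 0.000133) and Mdm2 by 0.73 ± 0.20 (adjusted p = 0.0292). Against MPPs, where 4.97% of all genes passed, the calls in LT-HSCs were 2 of 62 assembly genes (Bop1 by 0.81 ± 0.19 and Bysl by 0.79 ± 0.21, adjusted p = 0.0285 and 0.0465), 1 of 74 mitochondrial proteins (Mrps24 by 0.95 ± 0.26, adjusted p = 0.0498) and 2 of 10 p53-axis genes (Phlda3 by 1.00 ± 0.24 and Cdkn1a by 0.84 ± 0.23, adjusted p = 0.0270 and 0.0493), all higher. Markers of B cells, T and NK cells and erythroid cells passed as higher in the same LT-HSC arrays than in MPPs, in 12 of 17, 5 of 15 and 6 of 13 tested. Over all 8608 genes tested, 186 passed as higher there. The T and NK cell marker Nkg7 was lower there, at -1.59 ± 0.32 (limma, adjusted p = 0.0123). The part of such cells in these differences was not tested. The fit treated both arrays of a littermate pair as independent, while a random block gave a consensus correlation of 0.502 within pairs. The errors and p-values of these population differences can therefore be too small. Values with that block are not given for the genes of these lists.

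Ribosomal protein genes have many near-identical processed copies in the mouse genome, which bears on what their probe sets read. Of the 45 probe sets used, 12 are of the _x_ kind, 1 of the _s_ kind and 18 of the _a_ kind, all of which may bind more than 1 transcript, and 14 are of none of these. A further 102 probe sets carry several symbols of which 1 would meet the rule, and 101 of these passed the filter. Their median knockout difference was -0.018 for LT-HSCs, -0.014 for MPPs, 0.046 for myeloid cells and 0.007 when averaged. They are not named, and their genes were not counted as members. Of the 47 members, 23 had more than 1 single-symbol probe set.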

How the data were processed

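RNA of sorted cells was amplified with the WT-Ovation Pico kit, biotin-labelled and hybridised to Affymetrix mouse arrays, per the labels' protocols. The authors deposited 1 linear intensity per probe set and array. Their summarisation, scaling and background correction are not given in the sources used here. From these intensities, log2(intensity + 16) was computed and quantile normalized without the platform's control probe sets. Probe sets had to lie above the 40th percentile on 2 or more arrays, and each gene took its kept probe set with the highest mean. limma 3.58.1 (R 4.3.3) fitted 6 group means, with 8 residual degrees of freedom and a trend of variance on mean, two-sided tests, Benjamini-Hochberg adjustment over all 8608 genes and a threshold of 0.05. This main fit did not use the littermate pairs. Ratios of 3' to 5' signal and sums were taken from the deposited intensities. The procedure was tried on simulated arrays with independent noise, so without any correlation within pairs. Only the mean knockout difference was tried, with changes of 1 and 2 on the log2 scale. The simulation does not bear on the population differences or on smaller changes. Promoters came from RefSeq (GRCm38.p6).

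Same-numbered samples are littermates per the labels, and their deviations from the group means correlated with r of 0.204 to 0.613 in the 7 pairs. In groups of 2 arrays the deviations mirror each other. Both LT-HSC pairs therefore share the same r (0.465), as do both MPP pairs (0.595), and these are not separate checks. Full statistics were given for the members with the smallest p or the largest differences in a comparison and for members of set roles (stalk, 5S particle, marrow failure, paralog pairs), and for the 2 smallest p or the called genes of other lists. Rps4x, Rps9, Rps3, Rps2 and Rpl13a were described after their values were seen. All members and lists were chosen with earlier results of these data known. The alternatives changed the pseudocount, normalization, filter, trend, probe sets, blocks and arrays used.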

Additional observations from a re-analysis of the deposited data

How the results depend on the processing

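Across the alternatives no member passed in any knockout comparison or interaction. With the littermate pairs as replicate block the count of members called stayed at 0 in the knockout comparisons, and the block changed no member's call; fixed blocks give no population contrast, and a replicate block as a random effect, chosen after seeing the data, called 0 there too. In LT-HSCs minus myeloid progenitors, median centring called 2 members (Rpl4 and Rps3a1, both lower), and leaving out 1 array called 0 to 7; it was 7 without LT-HSC control array 2 and 6 without LT-HSC knockout array 2, which leave pair 1 with more weight. In LT-HSCs minus MPPs leaving out 1 array called 0 to 2 (2 without LT-HSC control array 2, Rpl12 higher and Rps9 lower), and in myeloid progenitors minus MPPs 0 to 1 (Rpl39 without MPP knockout array 2). The knockout median in LT-HSCs was -0.081 without normalization, -0.069 with median centring and -0.076 to 0.146 leaving out 1 array. The LT-HSC minus MPP median was -0.201 without normalization, 0.007 with only probe sets of the plain kind and 0.022 without LT-HSC pair 1. The LT-HSC minus myeloid median was -0.181 with median centring and 0.032 without that pair. For the knockout effect in LT-HSCs minus that in MPPs the median was -0.048 without normalization, -0.064 with median centring and -0.086 to 0.164 leaving out 1 array. For that in LT-HSCs minus myeloid progenitors it was -0.154, -0.155, -0.131 with plain probe sets and -0.169 to 0.094. The cause of these shifts was not tested. Of 1434 recomputed values of named members, 1422 stayed on the same side of the threshold, 12 passed only under an alternative and 18 had the other sign. Dim members such as Rpl39 and Rpl3l lie near the array background, which limits their precision. Rps4l, with a median intensity of 52.2, lay over the filter's percentile on 14 of 14 arrays but was also dim beside most members.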
